A study of Mus musculus with 150 samples.

Results

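Interval a is a 3484 bp segment of mouse chromosome 16 (mm10, chr16:48308399-48311882), and its single deletion is represented by 2 cas/129 embryonic stem cell clones, named 53 and G5. They were found by their genotype label, a.del, and account for 6 of the 150 samples and for 3 of the 50 replication timing profiles of cas/129 stem cells on this chromosome, which come from 43 clones. Clone 53 was profiled in 2 libraries, which were averaged, and clone G5 in 1. Each profile combines an early and a late S-phase fraction: cells were given BrdU for 2 h, sorted by DNA content, and the newly made DNA of 40,000 cells per fraction was pulled down and sequenced. The cells are hybrids of a Mus castaneus (cast) and a 129 (svim) genome and were grown in DMEM with 2i plus LIF, so each library gives 1 profile per parental allele.

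In both clones the edit is a CRISPR deletion of interval a and nothing else is labelled. Neither the edited allele nor whether the clones were derived separately is stated in the labels. No profile labelled as an unedited cas/129 clone could be used, so the comparison group was 5 cas/129 clones edited elsewhere and grown in the same medium. They are 30kdel B11 and C2 (deletion of chr16:48665576-48695490), 29kdel D8 (deletion of chr16:48235963-48264883), 14kdel D11 (deletion of chr16:48264884-48280115) and 24.5kinv 3 (inversion of chr16:48311882-48336437, which begins where interval a ends). All of these edits except 30kdel lie inside the domain described next, so the comparison clones are not wild type there. The p-values below measure only the spread between the clones in each comparison, the a.del clones included.

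Replication timing is the order in which stretches of a chromosome are copied during S phase. It is set over long domains, and early copying generally accompanies open, transcribed chromatin. The domain studied here holds Dppa4 and Dppa2, whose products are chromatin proteins found in pluripotent cells, and Morc1, whose product silences transposons in germ cells, and the study deleted parts of it singly and together. The comparison of the a.del clones addresses what the loss of interval a alone does to the timing of the domain. Timing is given as the deposited score at positions 5 kb apart, where a higher score means earlier replication, and differences are in units of that score.

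Interval a overlaps 1609 bp of Dppa2 (chr16:48310274-48319513, RefSeq annotation of GRCm38.p6) at its left end and extends 1875 bp beyond it. It holds 1 position of the table, which was left out of every value below. That position was not blank in any of the 6 columns of the a.del clones, so the table does not show the deletion or the allele it lies on. Scores are not expression, and the labelled stem cell type was not checked against marker genes.

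Over the whole domain (chr16:48190131-48620367, 76 positions) the 2 clones went opposite ways. The bounds of this domain are ends of edits made in the series, not edges of replication timing. In the comparison clones early replication reached beyond both bounds on each allele. In clone 53 the svim allele scored 2.48 and the cast allele 1.88. In clone G5 the svim allele scored 0.93 and the cast allele 1.80. Clone 53 therefore replicated the svim copy earlier than the cast copy, by 0.60, and clone G5 replicated it later, with svim minus cast at -0.87.

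The 5 comparison clones lay on 1 side of zero. Their domain scores ran from 1.64 to 2.74 on svim and from 1.72 to 3.18 on cast, and svim minus cast from -0.82 to -0.08, with a mean of -0.46 ± 0.34 (SD, n = 5). Clone 53 stood above this range and clone G5 just below its lower end. On the svim allele alone clone G5 lay below all 5 comparison clones and clone 53 within them, while on cast both a.del clones lay within the range.

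On svim and for svim minus cast the 2 clones deviated from the comparison mean in opposite directions, and on cast both were below it. The domain difference of a.del from the comparison clones was -0.38 ± 0.46 (SE) on svim (limma, Benjamini-Hochberg adjusted p = 0.559, exact two-sided permutation p = 0.476). It was -0.71 ± 0.43 (SE) on cast (limma adjusted p = 0.411, exact p = 0.238) and 0.33 ± 0.37 (SE) for svim minus cast (limma adjusted p = 0.986, exact p = 0.619). None of these exceeded the spread between clones, and with 2 clones against 5 the exact test cannot give a p below 0.0476. These tests average the a.del clones by named allele, and the edited allele is not stated. If it differed between the clones, opposite changes could cancel in the mean. The tests therefore cannot decide what the deletion does on the allele that carries it. The sign on svim rested on clone G5, since clone 53 alone differed from the comparison clones by 0.39, and the sign of svim minus cast rested on clone 53, since clone G5 alone differed by -0.41. The sign on svim also turned with scaling: with all columns set to the same median and interquartile range far from the edits, it was 0.28. The cast difference shrank to -0.07 under that rescaling. After quantile normalization per allele the differences were -0.02 on svim and -0.26 on cast.

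**Figure D1:**
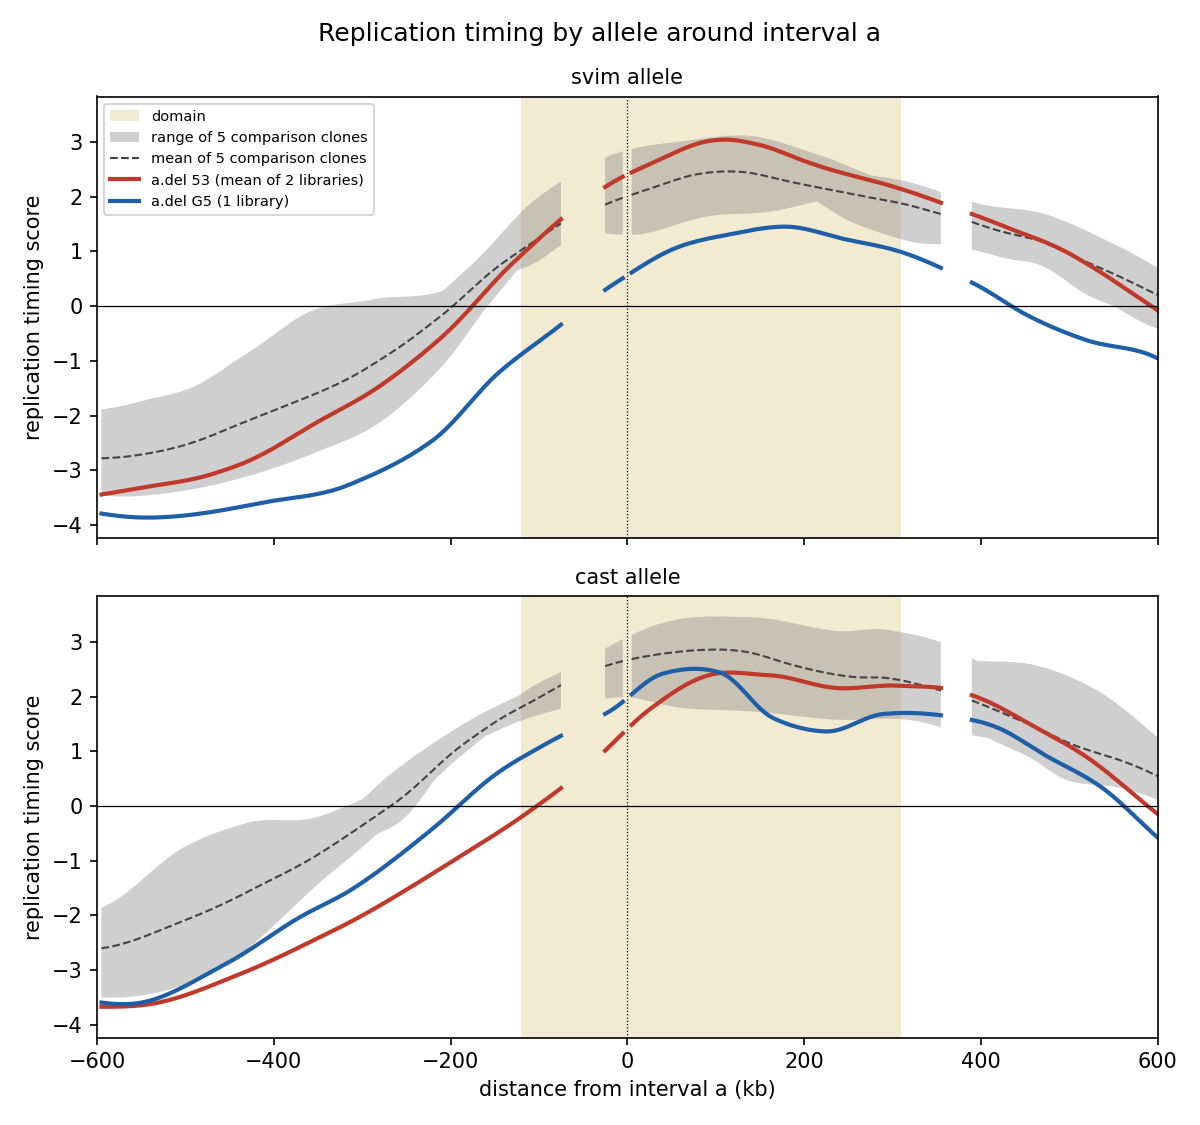
Replication timing score (vertical axis) against distance from interval a in kb (horizontal axis) for the svim allele (top) and the cast allele (bottom). Red is clone 53, blue clone G5, grey the range and dashes the mean of the 5 comparison clones, and the shaded band is the domain. Blue lies below the grey range on svim to the left of interval a, and red lies lowest on cast there. Gaps are positions left out because of the edits.

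The allele that replicated late in each clone was clearest to the left of interval a. In the part of the domain left of interval a (14 positions, holding Dppa4), clone 53 scored 1.65 on svim and 0.47 on cast. Clone G5 scored -0.23 on svim and 1.35 on cast. The comparison clones scored 1.09 to 2.31 on svim and 1.79 to 2.53 on cast, so clone 53 was within them on svim and below them on cast, and clone G5 was below them on both, most on svim.

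In the 200 kb before the domain, the left flank, the same order held. Clone 53 scored -0.58 on svim and -1.20 on cast, and clone G5 -2.25 on svim and -0.35 on cast. The comparison clones scored -1.08 to 0.41 on svim and 0.46 to 1.10 on cast. On cast, both a.del clones were below every comparison clone in the left flank and in the domain left of interval a. Their mean was lower than the comparison mean by -1.44 ± 0.40 (SE) in the left flank and by -1.32 ± 0.40 (SE) left of interval a. Each had an exact two-sided permutation p of 0.0476, the smallest possible, which became 0.429 after adjustment over 18 region tests, and a limma adjusted p of 0.405. Under the other scalings at least 1 of the a.del clones lay within the comparison range there on cast, with exact p of 0.38 and 0.10 left of interval a and 0.14 for each scaling in the left flank.

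To the right of interval a the clones were closer together. In the domain right of interval a (62 positions, holding most of Dppa2 and nearly all of Morc1), clone 53 scored 2.67 on svim and 2.20 on cast, and clone G5 scored 1.19 on svim and 1.90 on cast. Comparison clones scored 1.73 to 2.83 on svim and 1.71 to 3.32 on cast, so clone G5 on svim alone was outside. In the 200 kb after the domain clone 53 lay within the comparison range on both alleles, at 1.49 and 1.71, and clone G5 lay below it on svim, at 0.14, and within it on cast, at 1.28.

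**Figure D2:**
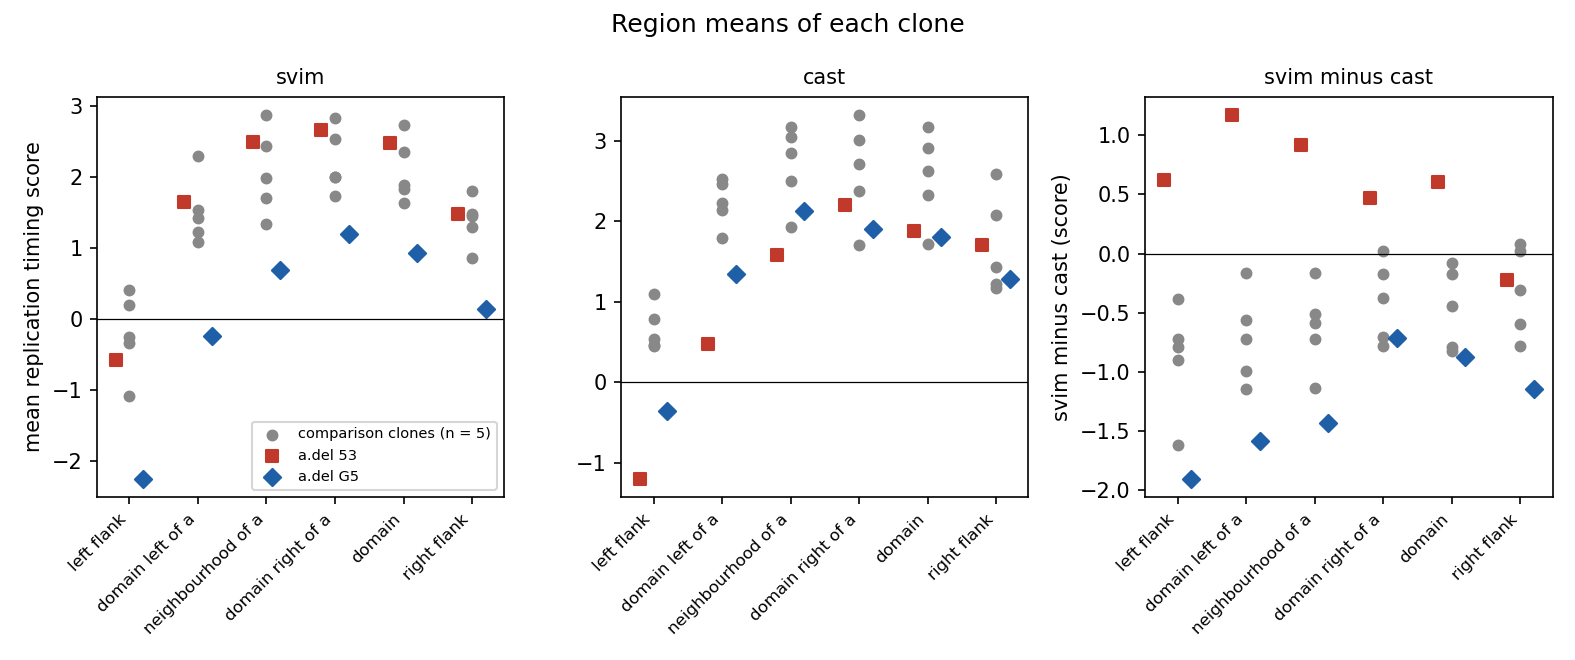
Mean score of each clone over the 6 regions named on the horizontal axis, for svim (left), cast (middle) and svim minus cast (right). Red squares are clone 53, blue diamonds clone G5 and grey points the 5 comparison clones. In the right panel clone 53 is above 0 in 5 of the 6 regions, at 0.60 in the domain, and clone G5 is below 0 in each.

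The difference between the alleles of a clone removes what both copies share in a library. Near interval a and to its left it separated clones 53 and G5 further than either allele did, while over the whole domain they were 1.47 apart in it and 1.55 apart on svim. Within 50 kb of interval a on either side, svim minus cast was 0.92 in clone 53 and -1.43 in clone G5, against -1.14 to -0.16 in the comparison clones. In the domain left of interval a it was 1.17 and -1.58, against -1.14 to -0.16. In the left flank it was 0.62 and -1.90, against -1.61 to -0.38. In these regions, on the scores as deposited, clone 53 stood above and clone G5 below all 5 comparison clones. After quantile normalization clone G5 was inside the comparison range within 50 kb of interval a, at -1.05 against -1.09 to -0.19. On the right of interval a the values were 0.47 and -0.71 in the domain and -0.22 and -1.14 in the flank beyond it. There clone 53 left the comparison range only inside the domain, and clone G5 only beyond it.

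Both libraries of clone 53 showed its direction. Svim minus cast over the domain was 0.43 in one and 0.78 in the other, within 50 kb of interval a 0.73 and 1.11, and in the left flank 0.38 and 0.86. The libraries were more alike on svim (2.63 and 2.34 in the domain) than on cast (2.20 and 1.56). Clone G5 has no second library, so its values have no such repeat. Along the chromosome the 2 libraries of clone 53 correlated at 0.99 on either allele, and clones 53 and G5 at 0.98 on svim and 0.98 on cast. These correlations run over neighbouring positions, which are not independent.

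**Figure D3:**
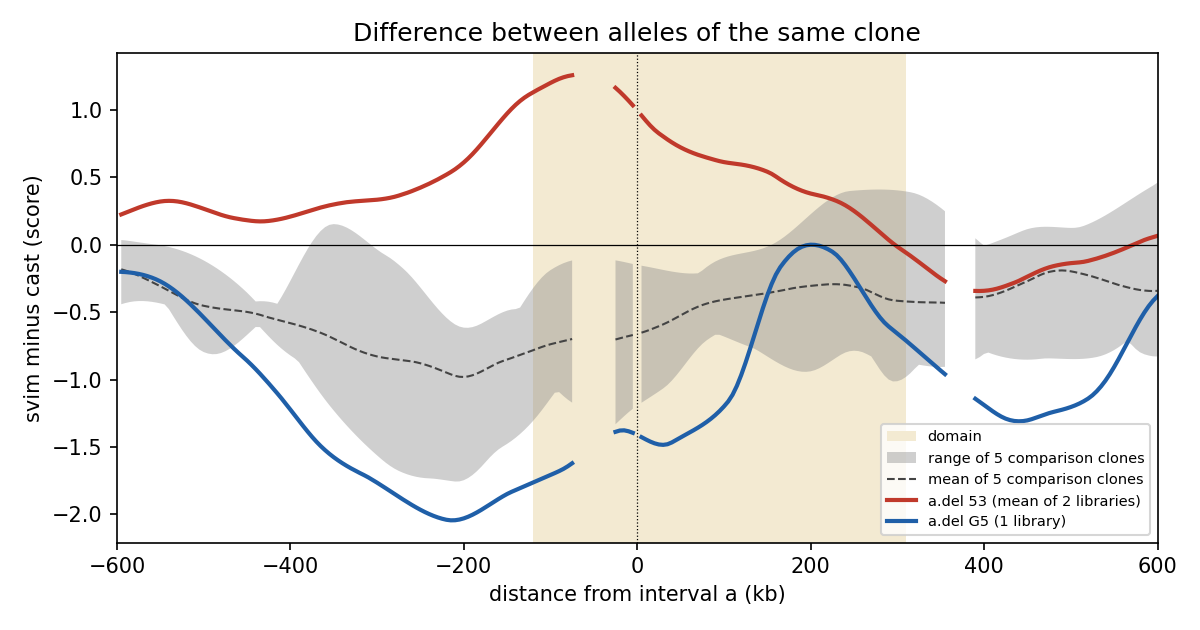
Svim minus cast of the same clone (vertical axis, score) against distance from interval a in kb (horizontal axis), with colours, grey range and domain band as for the profiles by allele. Clone 53 reaches its highest value within 100 kb to the left of interval a and clone G5 its lowest about 200 kb to the left of it, and beyond the right end of the domain clone 53 lies within the grey range while clone G5 lies below it for part of the way.

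Followed in 25 kb steps, svim minus cast of clone 53 was highest, at 1.24, in the step centred at -87.5 kb (negative distances are to the left) and declined on both sides of it, to 0.33 at -312.5 kb and to 0.40 at 187.5 kb. In clone G5 it was lowest, at -2.04, in the step centred at -212.5 kb, stayed at -1.46 at 37.5 kb and was -0.02 at 187.5 kb. From 37.5 to 187.5 kb clone G5 fell on cast from 2.41 to 1.46 and rose on svim from 0.95 to 1.44. That return was thus more on cast than on svim. On cast clone G5 declined from 2.49 at 87.5 kb to 1.38 at 212.5 kb, below the comparison range of 1.60 to 3.25. On svim clone G5 was still 1.35 there.

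The left edge of early replication also differed by clone and allele. On svim the first position below 0 to the left of the highest score lay at -180.1 kb in clone 53 and at -75.1 kb in clone G5, and in the comparison clones between -340.1 and -160.1 kb. On cast it lay at -105.1 kb in clone 53 and at -195.1 kb in clone G5, and in the comparison clones between -320.1 and -240.1 kb. The early stretch thus ended nearest to interval a on svim in clone G5 and on cast in clone 53. On cast neither a.del clone overlapped the comparison clones (mean difference 124 kb, exact two-sided permutation p = 0.0476, adjusted p = 0.381 over 8 tests of profile shape), a difference that was 62.5 kb after rescaling far from the edits and 58 kb after quantile normalization. On svim the difference was 99.5 kb (exact p = 0.238, adjusted p = 0.476). The highest svim score in the domain was 3.04 in clone 53 and 1.45 in clone G5 (comparison 2.00 to 3.12), and the highest cast score was 2.44 and 2.51 (comparison 1.99 to 3.46). The right edge differed by -138 kb on svim and by -100.5 kb on cast, with adjusted p of 0.476 for each.

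Tested over the whole chromosome, no window passed for the mean of the a.del clones against the comparison clones. That mean joins the clones by named allele, although the edited allele is not stated. If it differed between the clones, opposite changes could cancel. The absence of passing windows therefore does not show that the deletion has no effect on the allele that carries it. With limma on 50 kb windows, 0 of 1898 svim windows, 0 of 1893 cast windows and 0 of 1893 windows of svim minus cast passed an adjusted p of 0.05, which is 0 percent each. At an unadjusted p under 0.05 there were 255, 226 and 79 windows, of which 208, 204 and 44 were lower in the a.del clones. No window passed for cast or for svim minus cast when any single clone was left out. The svim count did depend on the comparison clones, with 19 windows without 14kdel D11 and 16 without 24.5kinv 3. None of these lay in the domain or its left flank, or within 1 Mb of interval a.

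The windows with the smallest p lay far from interval a, except on cast, where the last of those named lay in the left flank. None of them passed. For svim they were chr16:95600001-95650000, where the a.del clones scored -0.65 and -0.64 against a comparison mean of 1.49, then chr16:95650001-95700000 and chr16:72700001-72750000, with adjusted p of 0.154 each. For cast they were chr16:72750001-72800000 and chr16:95750001-95800000, followed by chr16:48100001-48150000 in the left flank, where clone 53 scored -0.85 and clone G5 0.12 against 0.99 to 1.52 (adjusted p = 0.405). For svim minus cast they were chr16:95450001-95500000, chr16:95400001-95450000 and chr16:63000001-63050000, with adjusted p of 0.986 each. In the first of these both clones were lower, at -1.41 and -1.18 against a comparison mean of -0.08.

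Lower scores in the a.del clones were common along the chromosome. The median window difference from the comparison clones was -0.51 on svim and -0.44 on cast, and -0.02 for svim minus cast. Both a.del clones lay below every comparison clone in 419 of 1898 svim windows (22.1 percent) and in 377 of 1893 cast windows (19.9 percent). Of the 7 windows centred in the domain this held for 0 on svim and 1 on cast, so these counts did not set the domain apart. Far from the edits, over positions more than 2 Mb away, the median svim score was -1.86 in clone 53 and -2.01 in clone G5, against -1.88 to -0.28 in the comparison clones, and the median cast score -1.76 and -1.91, against -1.89 to -0.20. Clone 24.5kinv 3 was the highest of the 5 on each allele. The part of these medians in the differences per allele was not tested beyond the rescaled values given here.

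Clone by clone, the domain windows of G5 were low on svim and those of clone 53 were not. Clone G5 lay below all 5 comparison clones on svim in 7 of the 7 domain windows and in 4 of the 4 left flank windows, against 44.9 percent of all windows. Clone 53 did so in 0 of 7 and 0 of 4, against 27 percent. On cast clone 53 lay below the comparison clones in 2 of 7 domain windows and 4 of 4 left flank windows (23.8 percent of all windows), and clone G5 in 4 of 7 and 4 of 4 (37.5 percent). A single clone below 5 others is thus frequent on this chromosome, and a count of that kind says little by itself. With both alleles rescaled far from the edits, clone G5 on svim remained below the comparison range in the left flank, at -1.61 against -0.71 to -0.12, and not in the domain, at 1.47 against 0.50 to 2.73.

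For svim minus cast the pattern was rarer. Clone 53 lay above every comparison clone in 6 of 7 domain windows (13.7 percent of all windows) and clone G5 below every one in 4 of 7 (20.3 percent). Both together, clone 53 above and clone G5 below, were found in 33 of 1893 windows (1.74 percent) and in 4 of 7 domain windows. The reverse, clone 53 below and clone G5 above, was found in 23 windows (1.22 percent) and in 0 of 7 domain windows. These counts were made after the clones were seen to differ, so they describe the pattern and are no test of it.

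The longest unbroken stretch of such windows on the chromosome ended in the domain. It ran over 8 windows, chr16:47850001-48250000, and had a mean svim minus cast of 0.58 in clone 53 and of -1.66 in clone G5. A second stretch of 3 windows, chr16:48300001-48450000, begins with the window that holds interval a, and the window between them was left out because of the deletions of 2 comparison clones. No other stretch exceeded 3 windows. The count of 33 was 73 without clone 24.5kinv 3, and 54 or 59 with the first or the second library of clone 53 alone. Leaving out a comparison clone can only narrow their range, so it can keep or raise this count but not lower it.

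**Figure D4:**
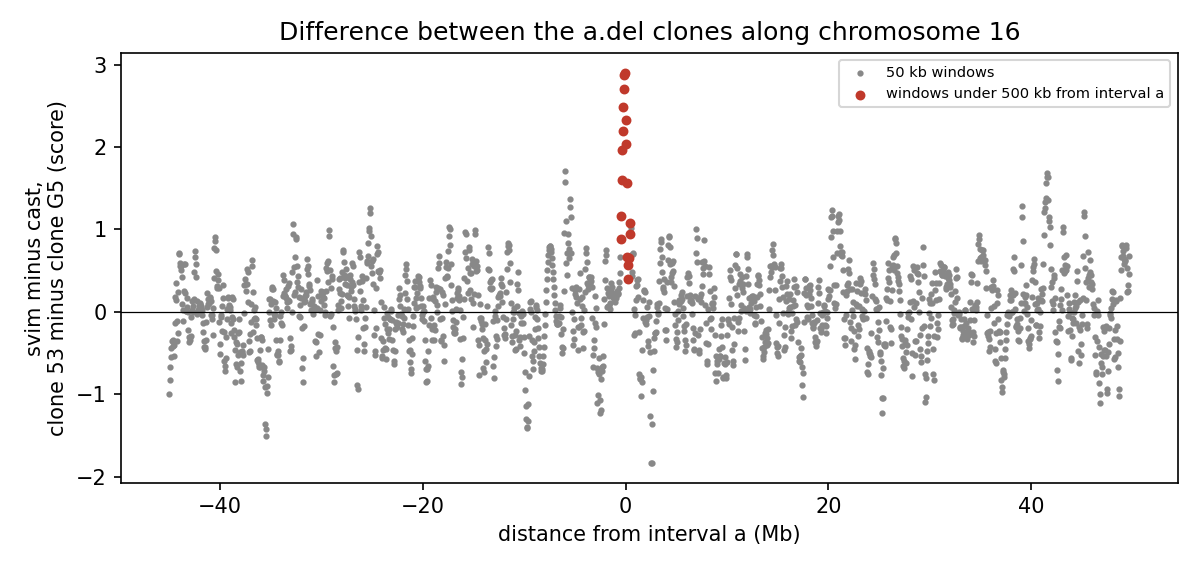
Svim minus cast of clone 53 minus that of clone G5 (vertical axis, score) for 1893 windows of 50 kb, against distance from interval a in Mb (horizontal axis). Red points are windows under 500 kb from interval a and grey points all others. The 5 highest points, from 2.33 to 2.90, are at interval a and to its left.

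The size of the difference between the 2 clones was largest to the left of interval a, and next largest in the window that holds it. In the window that holds interval a, chr16:48300001-48350000, svim minus cast of clone 53 exceeded that of clone G5 by 2.33. Any 2 of the comparison clones differed there by 0.10 to 0.94 (10 pairs), and the median size of the difference between clones 53 and G5 over all windows was 0.32. Only 5 of 1893 windows (0.264 percent) had a difference of at least 2.33 in size, including that window itself. The other 4 were the windows from chr16:48050001 to chr16:48250000, with differences of 2.49 to 2.90. Whether the clones differ was not tested, since each is 1 clone and clone G5 has 1 library. Clone G5 also stands in a later-numbered set of samples than clone 53 and the comparison clones. Clone and set cannot be told apart here.

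Clone 53 had the highest svim minus cast of the ranked cas/129 clones near interval a, and it was not the only clone above 0. In the domain left of interval a it ranked 1 of 35 clones with values at the same positions, and clone G5 ranked 26. In the neighbourhood of interval a clone 53 ranked 1 of 33 and clone G5 20. The median of these 33 clones, most of them with larger or other edits, was -1.14, and 4 of them were above 0. The next highest were clones C6 and C9 of c.del, the single deletion of interval c, at 0.63 and 0.37 within 50 kb of interval a, whereas c.del A12 and B11 were at -0.35 and -1.21. Clones of 1 genotype thus differed in sign in c.del as well. In the left flank clone 53 ranked 3 of 41 and clone G5 29, and to the right of the domain they ranked 6 and 25 of 43.

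The genes of the domain differed between the 2 clones as the windows did. Dppa4 (chr16:48283735-48294292, 2 positions) scored 2.20 on svim and 1.05 on cast in clone 53, and 0.32 on svim and 1.71 on cast in clone G5. At this gene the comparison clones scored 1.32 to 2.73 (svim) and 1.97 to 2.90 (cast). Its early replication was thus kept within the comparison range on svim in clone 53, and on cast both a.del clones were below it.

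Dppa2, which interval a cuts, kept 1 position outside the deletion. There clone 53 scored 2.44 on svim and 1.48 on cast, and clone G5 0.61 on svim and 2.04 on cast. The comparison clones scored 1.30 to 2.87 and 1.98 to 3.13. As at Dppa4, the lower allele was cast in clone 53 and svim in clone G5.

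Morc1 (chr16:48431237-48630905, 40 positions) scored 2.56 on svim and 2.26 on cast in clone 53, and 1.27 and 1.61 in clone G5. The comparison clones scored 1.86 to 2.69 on svim and 1.63 to 3.29 on cast. Clone G5 was below them on both alleles, by little on cast, and clone 53 within them. The alleles of clone 53 were closer at Morc1, with svim minus cast at 0.30, than at Dppa4, at 1.15, and those of clone G5 likewise, at -0.34 and -1.38.

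Trat1 (chr16:48730774-48810547), right of the domain, encodes an adaptor of the T cell receptor. It scored 1.23 on svim and 1.44 on cast in clone 53, within the comparison clones on both alleles. In clone G5 it scored -0.23 on svim, below the comparison range of 0.72 to 1.70, and 1.04 on cast, within it. The predicted gene Gm52257 (chr16:48057639-48062027, 1 position), in the left flank, scored -1.11 on svim and -1.53 on cast in clone 53, and -2.77 and -0.80 in clone G5. The comparison clones scored -1.74 to 0.17 on svim there, with clone 53 within them and clone G5 below. On cast they scored -0.19 to 0.80, with both a.del clones below.

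None of these genes passed the test of both clones against the comparison clones. That test also averaged the clones by named allele, so it has the limit given for the windows. Over the chromosome 0 of 995 genes on svim, 0 of 994 on cast and 0 of 994 for svim minus cast had a limma adjusted p under 0.05, which is 0 percent each, with 150, 173 and 32 at an unadjusted p under 0.05. On cast the differences were -1.19 at Dppa4 (limma adjusted p = 0.275) and -0.92 at Dppa2 (limma adjusted p = 0.276), and on svim -0.61 at Dppa4 (limma adjusted p = 0.455). Without 14kdel D11 85 genes passed on svim and 121 on cast, and without 24.5kinv 3 8 and 31 did. None of these was Dppa4, Dppa2 or Morc1, and of all listed genes those that passed were Bace2 and Grik1, on cast without 14kdel D11.

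The 7 measured genes listed for the right side of the domain are Trat1, Dzip3, Cip2a, Myh15, Ift57, Cd47 and Bbx. None passed, and 7 of 7 had a lower a.del mean on svim and 7 of 7 on cast, with median differences of -0.91 and -0.62 beside -0.31 and -0.26 over all genes. Of the late genes listed elsewhere on the chromosome, 10 of 10 were also lower on each allele. Of the 9 measured early genes, 2 were lower on svim and 3 on cast. A lower mean was thus not particular to the right side of the domain. Bbx, which encodes an HMG-box factor, scored -2.41 in clone 53 and -2.45 in clone G5 on svim, against -2.10 to -0.77. Of the 4 genes listed for the left side, none passed, and the median differences were -0.57 and -0.70. Plcxd2, Cd96 and Nectin3 of that list lie far to the left, at chr16:45959261 to chr16:46498535, whereas Gm4827 lies right of the domain in the annotation, beyond Cd47.

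Early and late genes elsewhere on the chromosome gave the scale. The 9 measured early genes, among them Son, Donson and Gart, had a median svim score of 3.21 in clone 53, 3.09 in clone G5 and 2.83 in the comparison clones, and the 10 late genes, among them Robo1, Robo2 and Ncam2, -2.78, -3.07 and -2.42. None passed on either allele with all 5 comparison clones in the fit. Bace2 was listed as early but scored below 0 in both a.del clones, at -1.58 and -1.90 on svim. Svim minus cast of the early genes had a median of 0.49 in clone 53 and -0.04 in clone G5, and that of the 3 domain genes of 0.96 and -1.38.

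The same interval was also removed together with other sequence. In these clones and the a.del clones the domain was averaged over the 50 positions that no edit removes, which puts svim minus cast at 0.61 in clone 53 and at -0.76 in clone G5. Removing interval a with the sequence to its left (28.5kdel A10, deletion of chr16:48284012-48311882) gave -0.97, and removing it with the sequence to its right (28kdel 9, deletion of chr16:48308399-48336437) gave -1.01. Both values were lower than in clone G5, and each rests on 1 clone. The differences from the a.del mean were -0.89 ± 0.50 (SE, limma adjusted p = 0.996) and -0.94 ± 0.50 (SE, limma adjusted p = 0.677), and 0 of 1891 windows passed in either contrast (0 percent, with 8 and 146 at an unadjusted p under 0.05).

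Removing interval a together with interval b (chr16:48396806-48437301) or interval c (chr16:48581359-48620367) gave far larger differences between the alleles than removing it alone. Svim minus cast was -3.65 and -3.10 in the ab.del clones, -2.58 and -3.29 in the ac.del clones, and -5.31 and -5.47 in the abc.del clones, which lack intervals a, b and c. No clone of these genotypes overlapped the a.del clones, and the svim scores were -0.93 and -0.69, -0.07 and -1.72, and -2.68 and -2.95. On cast they scored 1.57 to 2.72, and 5 of the 6 clones were above both a.del clones, which scored 1.69 and 1.84. No contrast was made with clones that lack only interval b or c. In the 200 kb right of the domain, svim minus cast was -3.11 to -1.67 in the c.del clones and -2.59 and -2.91 in ac.del. Within 50 kb of interval a it was -1.21 to 0.63 in c.del, beside -2.22 and -2.83 in ac.del. There it was -0.51 and -0.87 in b.del, beside -4.29 and -4.39 in ab.del.

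**Figure D5:**
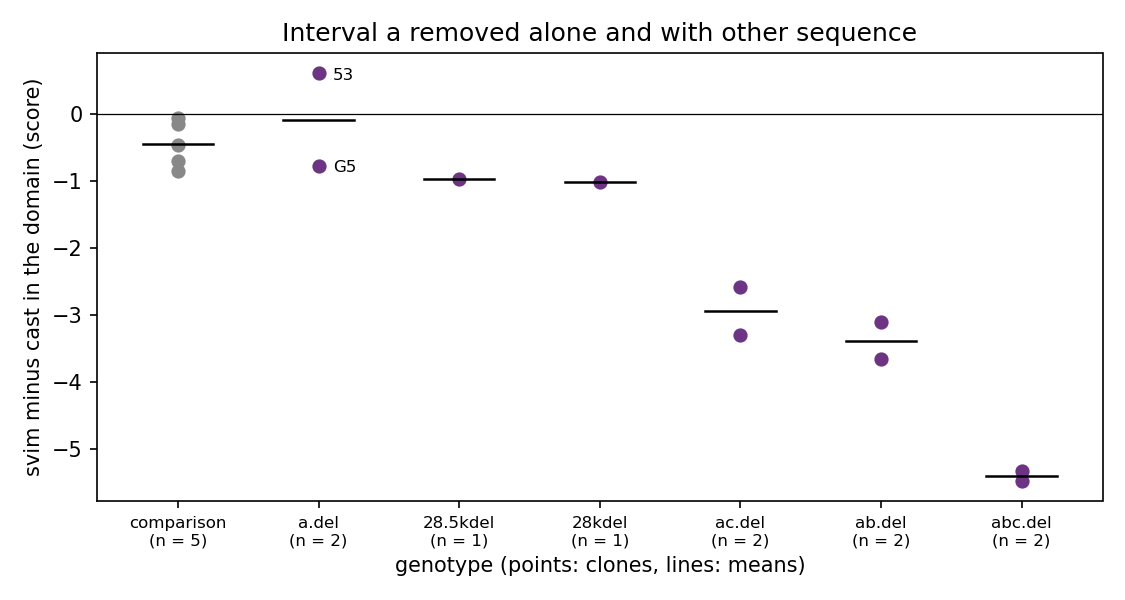
Svim minus cast over the domain (vertical axis, score) by genotype (horizontal axis, with the number of clones), over the positions that no edit removes. Points are clones and lines are means. Clones 53 and G5 lie at 0.61 and -0.76, and every ac.del, ab.del and abc.del clone lies below both.

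The contrasts with the a.del clones were -3.30 ± 0.41 (SE, limma adjusted p = 2.34e-04) for ab.del, -2.86 ± 0.41 (SE, limma adjusted p = 9.18e-04) for ac.del and -5.32 ± 0.41 (SE, limma adjusted p = 1.50e-07) for abc.del. Of 1891 windows, 7 passed for ab.del (0.37 percent), 7 for ac.del (0.37 percent) and 15 for abc.del (0.793 percent). The ab.del windows lay between chr16:48100001 and chr16:48600000, to the left of interval a and across the domain. Those of ac.del ran from chr16:48350001 to chr16:48800000, in the domain and to its right. For abc.del 13 windows ran from chr16:48100001 to chr16:48950000 and the other 2 covered chr16:38650001-38750000. The 5 contrasts share the a.del clones and a spread pooled over all groups in the fit, so they are not independent of each other. Their a.del mean joins clones of opposite sign whose edited allele is not stated, so the size of each contrast depends on that averaging. The order does not, since every ab.del, ac.del and abc.del clone lay below both a.del clones over the domain.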

How the data were processed

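The authors deposited 1 table for chromosome 16 (mm10) with a replication timing score per 5 kb position and column. Per the submitters' processing notes Bowtie2, SAMtools and bedtools were used. Neither the score's calculation, log base and smoothing nor the read depth was stated in them, the labels or the table. The 100 columns used share an interquartile range of 4.60, so the deposited scores had been scaled. Another 6 value columns, which carry the name of no listed sample, were left out.

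Scores were averaged over repeat libraries of a clone, then over regions, 50 kb windows with at least 50 percent of their positions left, and gene bodies (RefSeq, GRCm38.p6). Positions in interval a and in the comparison clones' deletions were left out, and with the combined deletions theirs too. The 2 a.del clones were compared with 5 clones by limma 3.58.1 in R 4.3.3 (lmFit and eBayes, two-sided, Benjamini-Hochberg over windows plus regions, or over genes, threshold 0.05), tested on simulated data first, and by exact two-sided permutation over clones. Combined deletions were contrasts in 1 fit of all those groups. Named were the listed genes, protein-coding genes within 500 kb of interval a, and the 3 windows of smallest p where none passed. The members, regions and lists were chosen with earlier results of these data known. Alternatives were other scalings, spreads, window sizes, region edges and margins beside the edits, single libraries of clone 53, and each clone left out.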

Additional observations from a re-analysis of the deposited data

Results flagged for a closer look

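The 2 a.del clones differed from each other in svim minus cast more than any pair of comparison clones did. Clones of some other genotypes also lay far apart. Within 50 kb of interval a the c.del clones ran from -1.21 to 0.63, while the b.del clones were at -0.51 and -0.87. In the left flank the clones of 680kinv, an inversion that covers it, ran from -3.83 to 2.22, further apart than clones 53 and G5. Clone 53 exceeded clone G5 by 1.47 over the domain (0.60 against -0.87), by 2.35 within 50 kb of interval a (0.92 against -1.43), by 2.75 in the domain left of interval a (1.17 against -1.58) and by 2.52 in the left flank (0.62 against -1.90). In each of these 4 regions both libraries of clone 53 lay above all 5 comparison clones and the single library of clone G5 below all 5. Under the other scalings clone G5 lay inside the comparison range over the domain, at -0.74 against -0.83 to 0.01 after rescaling and at -0.66 against -0.69 to 0.25 after quantile normalization. Within 50 kb of interval a it was inside after quantile normalization, at -1.05 against -1.09 to -0.19. The difference was not tested: the clones carry the same labelled genotype, they were set against each other after the pattern was seen, and clone G5 has 1 library. It also cannot be told apart from the later-numbered set of samples in which clone G5 stands.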

How the results depend on the processing

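No paired analysis was possible because repeat numbers in the labels mark libraries of 1 clone, which were averaged; svim minus cast is paired within a clone. Among cas/129 stem cell clones with columns for chromosome 16, the 5 comparison clones are those whose edits lie outside intervals a, b, c and the 4kdel interval, apart from a shared end base in 24.5kinv and 14kdel, so that alternative added no clone.

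Of 259 recomputed main values, 244 kept their direction and side of the threshold, though not always their size. The cast domain difference kept its sign but was -0.07 rescaled and -0.26 after quantile normalization. Exceptions were the svim domain difference, 0.28 with columns rescaled far from the edits and -1.16 to 0.39 with single clones left out, and svim minus cast, -0.41 to 1.06. Dppa4 on svim was 0.067 rescaled and -1.55 to 0.33 with clones left out. With the spread of all cas/129 groups 5 svim windows, 7 svim genes and 2 cast genes passed, and with trended, robust eBayes 5, 6 and 2. With single clones left out 0 to 19 svim windows, 0 to 85 svim genes and 0 to 121 cast genes passed, 19, 85 and 121 without 14kdel D11 and 16, 8 and 31 without 24.5kinv 3. The cause was not tested.

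The opposite signs of svim minus cast in clones 53 and G5 held in every setting run. The values were 0.42 to 0.78 and -0.87 to -0.66 over the domain, though clone G5 within 50 kb of interval a moved to -1.05 under quantile normalization. Settings that change only the comparison clones or the fit cannot alter these values, so they say nothing about the signs. On cast, the left edge difference of 124 kb was 62.5 kb rescaled and 58 kb under quantile normalization. The contrasts of a.del with the 3 combined deletions of interval a passed in every setting, ac.del with adjusted p up to 0.0454 (limma). With 2 clones, 1 of them in 1 library, and unknown depth, no counting error can be given.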
